A study of Mus musculus with 9 samples.

Results

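The transcripts of 10 genes that make, restrain or remove nitric oxide, or that carry its signal through cyclic GMP (cGMP), were followed in mouse embryonic stem cells (mESC) leaving ground-state pluripotency. The genes were taken by name from the deposited table of 29069 genes, and all 10 were found: the synthases *Nos1*, *Nos2* and *Nos3*, the synthase regulators *Nosip* and *Nostrin*, the dimethylarginine hydrolases *Ddah1* and *Ddah2*, the nitrosoglutathione reductase *Adh5*, the cGMP-dependent kinase *Prkg1* and the cGMP phosphodiesterase *Pde5a*. The test required a mean of more than 5 normalised counts across the 9 samples, which 9 of the 10 genes reached. *Nos2* passed that minimum through a single NO library, and *Prkg1* did not pass it.

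Nitric oxide synthases oxidise arginine to citrulline and nitric oxide, with tetrahydrobiopterin and calmodulin as helpers. The neuronal (*Nos1*) and endothelial (*Nos3*) enzymes are switched on by calcium, whereas the inducible enzyme (*Nos2*) is controlled mainly through its transcription and is best known in activated macrophages. Nitric oxide activates soluble guanylate cyclase, the resulting cGMP activates cGMP-dependent kinases, and phosphodiesterases end the signal. Nitric oxide also modifies cysteines, directly or through nitrosoglutathione, and in early development it is known for its part in the formation of heart and vessels.

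Cells of the D3 line (mES-D3), an established mESC line adapted to growth without feeder cells, were kept for 24 h in 3 media, each in triplicate (n = 3). In ground-state conditions (GS) the medium was serum-free N2B27 (NDiff) with 1 μM of the MEK inhibitor PD0325901, 3 μM of the GSK-3 inhibitor CHIR99021 and 20 ng/mL of leukaemia inhibitory factor (LIF). Differentiation medium (DM) was DMEM with 10% fetal bovine serum and 2-mercaptoethanol, without the inhibitors and without LIF. The NO medium was DM with 250 μM of DETA/NO, a donor that releases nitric oxide as it decays. All groups shared the one cell line, so differences between lines were not covered, and serum came in as inhibitors and LIF went out, so that these changes cannot be told apart in DM. Each library came from a culture dish of its own. Whether the 3 dishes per medium were separate experiments is not stated for these libraries in particular, and p-values measure the spread between these dishes.

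Total RNA depleted of ribosomal RNA was sequenced, and the values are read counts per gene that the authors normalised and rounded (normalised counts). Column totals lay between 18290445 and 20508679, and the depth estimated from the spacing of low values was 14307523 to 27061091 assigned reads per library, so that 1 read was worth 0.701 to 1.32 normalised counts. The 8 pluripotency markers summed to 105097 to 108284 in GS, 81511 to 89419 in DM and 55851 to 88978 in NO, and the lowest of these sums belonged to NO replicate 2, a library that stood apart from the other NO libraries for many of the genes below. Among defining markers of other cell types, the endothelial *Cdh5*, the leukocyte *Ptprc* and *Foxa2* were at or below 5 in every library. Other markers on the same lists reached higher values, such as *Tek* (75 to 1871), *Cd68* (191 to 676) and *T* (0 to 183).

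Leaving the ground state went along with a higher *Nos3*, a lower *Nos1* and a lower *Ddah1*, in DM and in NO alike (limma, Benjamini-Hochberg adjusted p-values over all genes, all below). *Nos3* rose 3.92-fold in DM and 2.19-fold in NO, on the scale of normalised counts plus 1. *Pde5a* rose with the donor, 2.06-fold against GS and 2.94-fold against DM. *Nosip*, *Nostrin*, *Ddah2*, *Adh5* and *Nos2* passed the test in none of the 3 comparisons. As these are bulk libraries, fewer cells that hold a transcript and less of it per cell cannot be told apart.

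**Figure D1:**
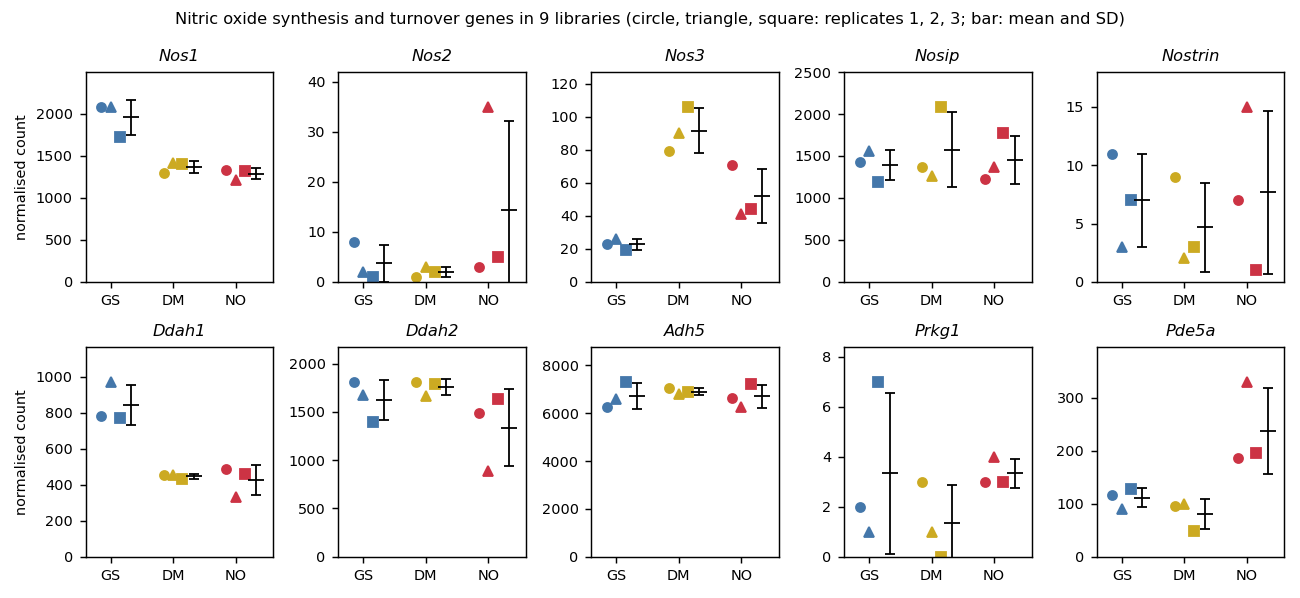
Normalised counts (y axis, linear, starting at 0) of the 10 genes in each library of GS, DM and NO, with circles, triangles and squares for replicates 1, 2 and 3 and a bar for the mean and SD. *Nos3* sits between 19 and 26 in GS and between 79 and 106 in DM, and *Pde5a* reaches 330 in NO replicate 2.

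*Nos3*, the endothelial synthase (ENSMUSG00000028978), lies on the plus strand at chr5:24364810-24384474 of GRCm38. In normalised counts, the GS libraries held 23, 26 and 19, with 79, 90 and 106 in DM, and 71, 41 and 44 in NO. Every DM and NO value lay above every GS value, and every NO value lay below every DM value. Means were 22.7 ± 3.51 (SD, n = 3) in GS and 91.7 ± 13.6 in DM, and the rise came to 1.97 ± 0.29 (SE) on the log2 scale (adjusted p = 0.00176). In NO, with a mean of 52.0 ± 16.5, the log2 fold change against GS was 1.13 ± 0.29 (adjusted p = 0.0178). The direct comparison of NO with DM gave -0.84 ± 0.29, with a 95% interval from -1.47 to -0.21, and did not pass the test (adjusted p = 0.0706). It did pass without NO replicate 1, with a log2 fold change of -1.08 (adjusted p = 0.0209), and the rise in NO against GS was lost without GS replicate 3 (adjusted p = 0.0681). The *Nos3* values rested on an estimated 14 to 128 reads per library.

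The *Nos3* locus is shared with 2 genes on the opposite strand, and use of the strand in counting was not stated. The antisense gene *Gm15587* overlaps 1040 bp of the exons of *Nos3* (25.2%), and *Atg9b*, a protein-coding gene of the autophagy machinery, overlaps 294 bp at the 3′ end (7.12%). *Atg9b* counted 120, 127 and 112 in GS, 151, 186 and 179 in DM, and 256, 943 and 404 in NO, thus rising in NO against GS (log2 fold change 1.94, adjusted p = 0.00403) and against DM (1.42, adjusted p = 0.0249). *Gm15587* had at most 18 normalised counts in any library and passed no test. *Nos3* was highest in DM and *Atg9b* in NO. Per the study's methods, reads that overlapped several genes were left out of the counts. If the strand was not used, reads in the shared bases were thus not counted, which would lower *Nos3* and its level per kb. How many reads were left out, or came from either neighbour, was not tested.

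**Figure D2:**
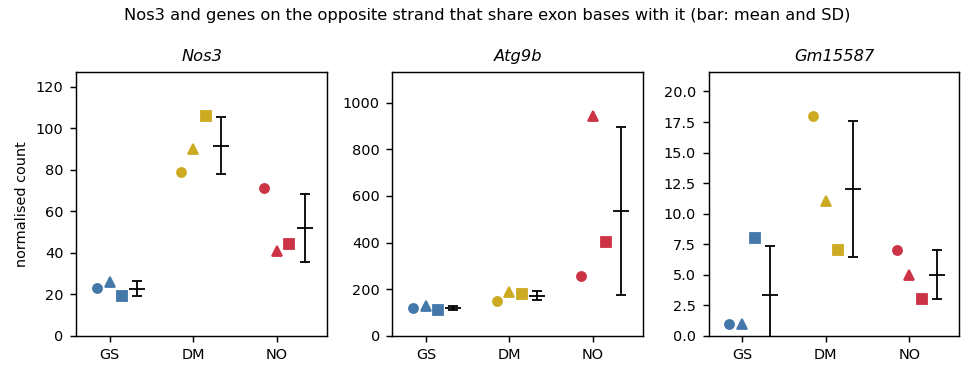
Normalised counts (y axis, linear, own scale in each panel) of *Nos3* and of the 2 genes on the opposite strand that share exon bases with it, per library in GS, DM and NO (circle, triangle, square: replicates 1, 2, 3), with mean and SD as bars. *Atg9b* peaks at 943 in NO replicate 2, where *Nos3* is at 41.

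*Nos1*, the neuronal synthase (ENSMUSG00000029361; chr5:117781032-117958840, plus strand), was by far the most abundant of the 3 synthases. In the GS libraries it had 2079, 2082 and 1721 normalised counts, in DM 1290, 1409 and 1405, and in NO 1328, 1211 and 1320. All GS values exceeded all others, while the DM and NO values overlapped. *Nos1* fell by 0.51 ± 0.13 (SE) on the log2 scale in DM (adjusted p = 0.0322) and by 0.60 ± 0.13 in NO (adjusted p = 0.00736), under 2-fold in either medium. Between NO and DM the difference was -0.09, with a 95% interval from -0.37 to 0.19 (adjusted p = 0.672). The decrease in DM was close to the threshold: with the replicate number as a block the adjusted p was 0.0673, and it was also lost without GS replicate 1 (0.123) or 2 (0.141), without DM replicate 1 (0.122), 2 (0.0847) or 3 (0.0639), or without NO replicate 3 (0.0574). The antisense gene *Gm26995*, which overlaps 2.4% of the exon bases of *Nos1*, had at most 8 normalised counts in any library.

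*Nos2*, the inducible synthase (ENSMUSG00000020826; chr11:78920787-78960254, plus strand), was barely detected. Normalised counts of 8, 2 and 1 were found in GS, 1, 3 and 2 in DM, and 3, 35 and 5 in NO. NO replicate 2 alone exceeded 8, and there the macrophage markers also had their highest sum, 694. The sums were 200 to 266 in GS, 289 to 410 in DM and 458 to 694 over the 3 NO libraries. In NO replicate 2 the markers *Cd68*, *Csf1r*, *Lyz2* and *Ptprc* were at 676, 14, 3 and 1. Their part in the *Nos2* value was not tested. No comparison of *Nos2* passed the test, and the interval for NO against DM ran from -0.15 to 3.59 on the log2 scale. The gene had 1 to 27 estimated reads per library.

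Levels per kb of exon allow the synthases to be set side by side. *Nos1* had a mean of 175.8 normalised counts per kb in GS, 122.7 in DM and 115.4 in NO, and *Nos3* had 5.49, 22.2 and 12.6. The share of *Nos3* in the summed level of the 3 synthases was 2.87, 3.25 and 2.89% in GS, 14.2, 14.6 and 16.9% in DM, and 12.5, 7.85 and 8.18% in NO. Shares in the 3 media did not overlap, with means of 3.00 ± 0.22% (SD, n = 3), 15.2 ± 1.4% and 9.52 ± 2.6%. *Nos1* kept 96.2 to 97.0% in GS, 82.8 to 85.7% in DM and 85.9 to 90.9% in NO, so it remained the main synthase transcript in every library. The summed level was 182.1 ± 19.9 per kb in GS, 145.3 ± 9.06 in DM and 131.2 ± 5.33 in NO, and the ranges of GS (159.2 to 193.8) and DM (135.0 to 152.1) did not overlap. Shares are descriptions, with no test of their own.

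**Figure D3:**
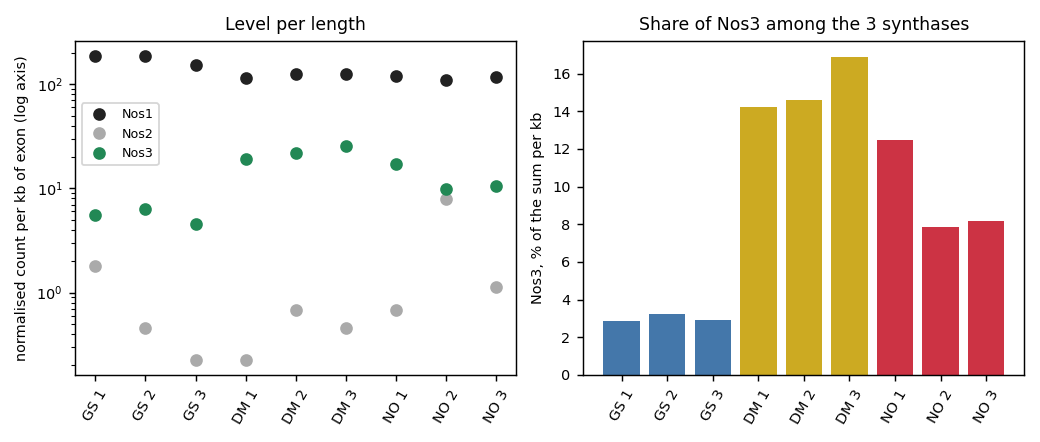
Left, normalised counts per kb of exon of *Nos1*, *Nos2* and *Nos3* in each library (log axis); right, the percentage of *Nos3* in the sum of the 3 per library, 1 bar per library, starting at 0. The *Nos3* share is 2.87 to 3.25% in GS, 14.2 to 16.9% in DM and 7.85 to 12.5% in NO, and *Nos2* nears *Nos3* only in NO replicate 2.

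Regulators that bind the synthases did not pass the test in any comparison. *Nosip* (ENSMUSG00000003421; chr7:45062429-45078210, plus strand), whose product binds NOS1 and NOS3 and moves them away from their sites of action, was counted 1424, 1556 and 1195 times in GS (normalised), 1369, 1267 and 2085 in DM, and 1221, 1366 and 1777 in NO. The 3 groups overlapped, with replicate 3 the highest in DM and in NO and the lowest in GS. Intervals of the log2 fold change were -0.30 to 0.60 for DM against GS, -0.40 to 0.50 for NO against GS and -0.55 to 0.35 for NO against DM. *Prrg2*, on the opposite strand, shares 103 bp (3.68%) of the exons of *Nosip* and had 162 to 285 normalised counts over all libraries. *Nostrin* (ENSMUSG00000034738; chr2:69135800-69189330, plus strand), which draws NOS3 away from the plasma membrane, had 1 to 15 normalised counts in every library, with overlapping groups, and its intervals were wide, from -2.30 to 1.18 on the log2 scale for DM against GS and from -1.37 to 2.10 for NO against DM.

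Dimethylarginine hydrolases degrade asymmetric dimethylarginine, the endogenous inhibitor of all nitric oxide synthases. *Ddah1* (ENSMUSG00000028194, chr3:145758675-145894277, plus strand) is shown with the stretch upstream of its first annotated exon. The stretch holds CACCTG, the E-box core bound by ZEB1, a repressor central to the study. Whether ZEB1 acts on *Ddah1* was not tested. The letters are from RefSeq (GRCm38.p6), plus strand, chr3:145758442-145758674, 5′ to 3′, and capitals mark the match, which begins 170 bases before the RefSeq start.
Ddah1: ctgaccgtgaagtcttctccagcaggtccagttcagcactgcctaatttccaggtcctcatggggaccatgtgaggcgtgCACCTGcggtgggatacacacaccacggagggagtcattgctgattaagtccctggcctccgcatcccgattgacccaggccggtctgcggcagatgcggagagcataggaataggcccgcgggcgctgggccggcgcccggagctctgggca
The core was searched on both strands (CACCTG or CAGGTG) in RefSeq windows of 250 bases before to 50 after a start. Of the 10 genes, 8 had a window, all but *Nos2* and *Nos3*, and 3 held the core, namely *Nos1*, *Ddah1* and *Pde5a*. The window of *Nos1*, at chr5:117866589-117866888, lies inside the annotated gene and not upstream of its first exon. It was present in 22.6% of 27025 genes with a window and in 20.2% of 32851 windows, so a match of 6 bases is common. A match is not a bound site.

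*Ddah1* had normalised counts of 784, 971 and 771 in GS, 456, 456 and 431 in DM, and 488, 334 and 460 in NO. Every GS value lay above every DM and NO value. *Ddah1* fell by 0.90 ± 0.17 (SE) on the log2 scale in DM (adjusted p = 0.00785) and by 0.99 ± 0.17 in NO (adjusted p = 0.00271), to means of 447.7 ± 14.4 (SD, n = 3) and 427.3 ± 82 from 842.0 ± 111.9. Between NO and DM the interval ran from -0.46 to 0.29 (adjusted p = 0.772). Without GS replicate 2, the library with the highest value, the decrease in DM had an adjusted p of 0.0514.

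*Ddah2* (ENSMUSG00000007039; chr17:35059035-35062095, plus strand), the other hydrolase of the family, passed the test in no comparison. Its values were 1805, 1670 and 1397 normalised counts for GS, 1810, 1665 and 1793 in DM, and 1492, 884 and 1630 in NO. All NO values lay below all DM values, with NO replicate 2 lowest by far, but the difference of -0.44 (95% interval -0.89 to 0.01) did not pass the test (adjusted p = 0.167). DM against GS gave 0.12 (interval -0.33 to 0.57). Whether the changes of the 2 hydrolases differed from each other was not tested.

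*Adh5* (ENSMUSG00000028138; chr3:138443093-138455499, plus strand) encodes the enzyme that reduces S-nitrosoglutathione and thereby limits protein nitrosylation. Normalised counts of *Adh5* came to 6246, 6600 and 7310 in GS, 7050, 6784 and 6867 in DM, and 6621, 6277 and 7201 in NO. The groups overlapped throughout. Intervals of the log2 fold change were the narrowest among the 9 tested genes, -0.23 to 0.31 for DM against GS, -0.27 to 0.27 for NO against GS and -0.31 to 0.23 for NO against DM.

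*Pde5a*, the phosphodiesterase that breaks down cGMP and is the target of sildenafil (ENSMUSG00000053965; chr3:122728947-122859374, plus strand), was the gene of the group that rose with the donor. The 30 bases around its CACCTG (RefSeq, GRCm38.p6, plus strand, chr3:122729038-122729067, capitals marking the core, 108 bases before the RefSeq start and inside an exon of the GENCODE annotation) are given as for *Ddah1*. Whether the match bears on the level of *Pde5a* was not tested.
Pde5a: gaggacgcccgcCACCTGggaacctcgggg
The normalised counts of *Pde5a* were 117, 91 and 127 in GS, 95, 99 and 49 in DM, and 187, 330 and 195 in NO. All NO values exceeded all others, and GS and DM overlapped. In NO, with a mean of 237.3 ± 80.3 (SD, n = 3), the log2 fold change was 1.56 ± 0.31 (SE, adjusted p = 0.00985) against DM and 1.04 ± 0.31 (adjusted p = 0.0349) against GS. DM against GS did not pass the test (-0.51, interval -1.19 to 0.17, adjusted p = 0.398).

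The higher *Pde5a* in NO than in DM also passed without NO replicate 2 (log2 fold change 1.29, adjusted p = 0.0251). Against GS it did not (0.78, adjusted p = 0.115), nor without GS replicate 1 (adjusted p = 0.0772), 2 (0.123) or 3 (0.0685) or without NO replicate 3 (0.0579). For smooth muscle, a tissue rich in *Pde5a*, the 5 markers summed to 68 to 70 in GS, 76 to 107 in DM and 123 to 473 in NO. Of the 5, 3 passed the test as higher in NO against GS (13.4% of all genes did) and 2 in NO against DM (9.01%). In DM every sum lay above every GS sum. *Myh11* had 16 to 20 in GS, 18 to 27 in DM and 41 to 201 in NO. *Cnn1* had 5 to 9, 17 to 43 and 22 to 96, and *Lmod1* 1 to 4, 4 to 16 and 22 to 91. *Tagln* had 30 to 40, 27 to 35 and 34 to 79, and *Acta2*, the smooth muscle actin, was at 3 to 11 in every library. The part of these markers in the *Pde5a* values was not tested.

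*Prkg1*, the cGMP-dependent kinase that carries much of the signal in muscle (ENSMUSG00000052920; chr19:30564489-31765033, minus strand), was nearly absent, with values of 2, 1 and 7 in GS, 3, 1 and 0 in DM, and 3, 4 and 3 in NO. These were at most 5 estimated reads in a library, and the gene was not tested.

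**Figure D4:**
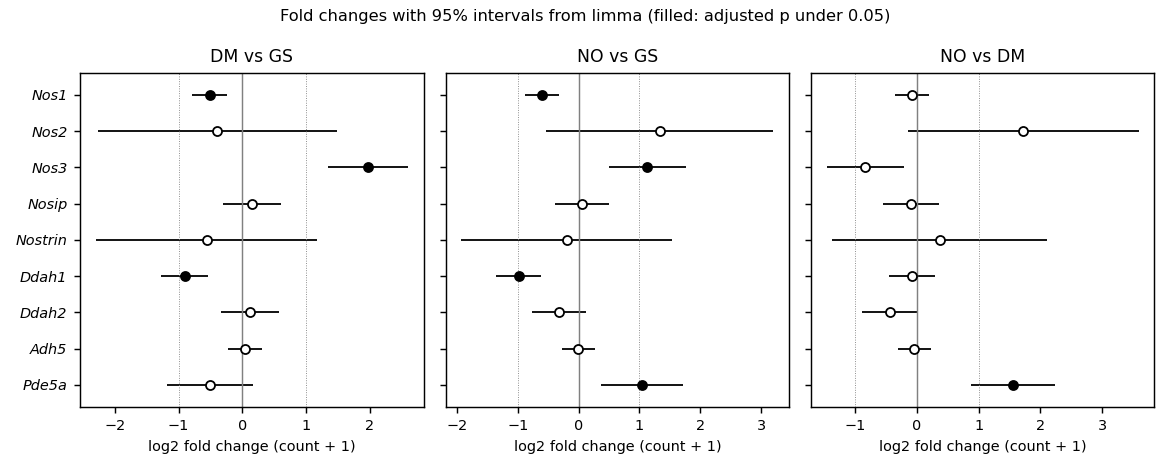
Log2 fold changes of normalised counts plus 1 (x axis) with 95% intervals for the 9 tested genes in the 3 comparisons, from limma on 3 replicates per medium, with filled points for an adjusted p under 0.05 and dotted lines at 2-fold. *Nos3* stands at 1.97 in DM against GS and *Pde5a* at 1.56 in NO against DM, and the intervals of *Nos2* and *Nostrin* span several log2 units.

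Counted over the 9 tested genes, 1 was higher and 2 were lower in DM than in GS, against 4.37% and 2.32% of the 18156 genes tested. In NO against GS, 2 were higher and 2 lower (all genes 13.4% and 6.64%), and in NO against DM 1 was higher and 0 were lower (9.01% and 5.24%), with *Nos3* lower there at an unadjusted limma p of 0.0131. Past the 2-fold threshold of the study as well, *Nos3* was called in DM against GS (higher 2.94%, lower 1.27% of all genes), *Nos3* and *Pde5a* in NO against GS (10.1% and 1.64%), and *Pde5a* in NO against DM (6.78% and 1.77%). Values of the compared groups did not overlap for 3, 4 and 3 of the 9 genes, against 29.6%, 39.1% and 33.4% of all genes, and these shares are near the background. Median log2 fold changes over the 9 genes were -0.39, -0.003 and -0.09, where all genes had -0.0007, -0.02 and 0.001. The F test over the 3 media passed for 4 of 9 genes, *Nos1* (adjusted p = 0.0107), *Nos3* (0.00232), *Ddah1* (0.00336) and *Pde5a* (0.0109), and for 23.3% of all genes. The 3 comparisons share their samples in pairs, so the counts are not independent. Among all called genes, 86.0% were higher in NO than in GS and 79.3% higher in NO than in DM, and 67.5% and 65.1% after quantile normalisation.

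Set side by side per kb of exon in GS, the order of mean levels was *Adh5* (1242), *Ddah2* (1019), *Nosip* (497.0), *Ddah1* (211.4), *Nos1* (175.8), *Pde5a* (11.4), *Nos3* (5.49), *Nostrin* (3.71), *Nos2* (0.831) and *Prkg1* (0.307). *Nos3* and *Nostrin* overlapped in GS, and so did *Nostrin* and *Nos2*, and *Nos2* and *Prkg1*. The pair *Ddah1* and *Nos1* had separate ranges in GS and, in the opposite order, in DM, and overlapped in NO. *Pde5a* and *Nos3* also traded places: *Nos3* was above *Pde5a* in every DM library (19.1 to 25.6 against 4.98 to 10.1 per kb), and *Pde5a* was above *Nos3* in every NO library (19.0 to 33.6 against 9.92 to 17.2).

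Profiles most like that of *Nos3* over the 9 samples, by the root mean square (RMS) difference of centred log2 values, were those of *Adamtsl1* (0.17), *Bnc2* (0.19), *Ppm1j* (0.23) and *Itga9* (0.23). *Bnc2*, a zinc-finger gene, had 132 to 157 normalised counts for GS, 561 to 676 for DM and 236 to 330 for NO. *Itga9*, an integrin chain, had 128 to 172, 622 to 746 and 207 to 400. Nearest to *Pde5a* were *Npas2* (0.08), *Trp53inp1* (0.19), *Bend7* (0.21) and *Pid1* (0.22). *Trp53inp1*, a target of p53, had 6124 to 8056 in GS, 3910 to 5508 in DM and 9356 to 18380 in NO, with NO replicate 2 the highest, as for *Pde5a*. These likenesses are descriptions over shared libraries.

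Around these 10 genes, 63 others of the pathway were listed in 9 groups, of which 62 were in the table and 54 were tested. In DM against GS 5 passed the test as higher and 1 as lower, in NO against GS 9 and 3, and in NO against DM 7 and 3. In either direction these were 11.1%, 22.2% and 18.5% of the 54 genes, where 6.69%, 20.0% and 14.2% of all genes passed, so that NO against GS was near the background. Past 2-fold as well, the counts were 5, 7 and 6 of the 54, and 763, 2127 and 1552 of the 18156 genes tested. At either threshold the higher genes in NO against GS and against DM include *Cav2*, which passed the minimum mean through NO alone. Their median log2 fold changes were 0.09, 0.15 and -0.02, and those of all genes -0.0007, -0.02 and 0.001. Without NO replicate 2, 52 genes were tested. In NO against GS 5 then passed the limma test, 4 of them past 2-fold (*Dlg4*, *Gchfr*, *Npr1* and *Pde2a*), and in NO against DM 4 passed and 0 were past 2-fold as well, with 13 at an unadjusted p under 0.05. Of all 17893 genes then tested, 1398 and 785 were past both thresholds in these comparisons. The share of all genes at an unadjusted p under 0.05 is not given, here or below, so such counts have no background. In DM against GS the number past both thresholds was 5, as with all libraries.

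With each of the 9 libraries left out in turn, *Pde2a* in DM and in NO against GS and *Npr1* in NO against GS passed the limma test every time. *Dlg4* lost its call in DM without DM replicate 2 (adjusted p = 0.0600) and in NO without GS replicate 3 (0.0634), and *Npr3* lost its call in DM without GS replicate 2 (0.0525). The other calls of *Arg2*, *Gchfr*, *Npr1*, *Npr2*, *Npr3*, *Pde9a*, *Pde11a* and *Qdpr* given below were lost in 3 to 8 of these 9 fits.

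Soluble guanylate cyclase, the receptor of nitric oxide, was represented by *Gucy1a2*, at a normalised count of 129, 135 and 201 in GS, 129, 148 and 73 in DM, and 125, 152 and 127 in NO. Its partner subunit gene *Gucy1b3* had 4 to 5, 4 to 16 and 8 to 13. Neither of the 2 tested subunits passed the limma test in any comparison, also at an unadjusted p under 0.05 (0 genes), and *Gucy1a3* and *Gucy1b2* were at 0 to 4 in every library.

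Of the 11 tested phosphodiesterases and kinase components other than *Pde5a* and *Prkg1*, 3 were higher in DM than in GS, 2 in NO than in GS and 1 in NO than in DM, and 0 were lower by limma at the adjusted threshold. Of all genes, 4.37%, 13.4% and 9.01% were higher in these comparisons. At an unadjusted p under 0.05 there were 6, 5 and 5 genes in either direction, with no share of all genes given at that threshold. *Pde2a*, which is stimulated by cGMP, stood at 74, 41 and 26 normalised counts for GS, 174, 166 and 189 in DM, and 144, 158 and 167 in NO. It rose in DM (by 2.01 on the log2 scale, adjusted p = 0.00256) and in NO (1.84, adjusted p = 0.00251) against GS, with no overlap. *Pde9a*, a cGMP-selective enzyme, had 185, 164 and 191 in GS, 422, 497 and 420 in DM and 348, 134 and 297 in NO, and rose in DM (1.30, adjusted p = 0.0204). *Pde10a* was higher in NO than in DM (34, 184 and 64 against 1, 6 and 21; 3.47, adjusted p = 0.0159), and *Pde11a* was higher in NO than in GS (20, 60 and 25 against 12, 10 and 12; 1.39, adjusted p = 0.0393). In both genes NO replicate 2 was the highest library, and without it the adjusted p was 0.0517 for *Pde10a* and 0.139 for *Pde11a*. With the replicate block, *Pde11a* had an adjusted p of 0.0556.

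Natriuretic peptide receptors make cGMP at the membrane, apart from nitric oxide. Of the 3 genes 1 fell in DM against GS (2.32% of all genes did), 2 rose in NO against GS (13.4%) and 3 rose in NO against DM (9.01%). *Npr1* counted 281, 297 and 275 in GS, 369, 375 and 374 in DM, and 547, 1854 and 927 in NO, so that the 3 groups did not overlap. It rose in NO against GS (log2 fold change 1.78, adjusted p = 0.00357) and against DM (1.39, adjusted p = 0.0185), and without NO replicate 2 the values were 1.32 (adjusted p = 0.00156) and, under 2-fold, 0.93 (adjusted p = 0.0174). *Npr2* was at 35, 245 and 103 in NO, against 22, 10 and 24 in GS (5.26-fold, adjusted p = 0.0229) and 9, 14 and 29 in DM (5.89-fold, adjusted p = 0.0240). Without NO replicate 2 neither difference of *Npr2* passed, with log2 fold changes of 1.73 (adjusted p = 0.0752) and 1.89 (adjusted p = 0.0763). *Npr3*, the clearance receptor, went from 105, 139 and 87 in GS to 40, 39 and 47 in DM (-1.35, adjusted p = 0.00821), and in NO it was at 68, 101 and 72, higher than in DM (0.90, adjusted p = 0.0384, and 0.119 without NO replicate 2).

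Tetrahydrobiopterin, the cofactor of the synthases, is made and recycled by 8 listed genes, of which 1 rose in DM against GS, 1 rose and 1 fell in NO against GS, and 1 fell in NO against DM. Of all genes, 4.37% rose in DM against GS, 13.4% rose and 6.64% fell in NO against GS, and 5.24% fell in NO against DM. *Gchfr*, whose product restrains the first enzyme of its synthesis, was at 25, 20 and 26 in GS, 51, 51 and 48 in DM, and 50, 33 and 56 in NO, and rose in DM (log2 fold change 1.06, adjusted p = 0.0477) and in NO (0.92, adjusted p = 0.0421). Neither rise of *Gchfr* passed with the replicate block (adjusted p = 0.0749 and 0.0576). *Qdpr*, which regenerates the cofactor, had 2370, 2387 and 2683 in GS, 3051, 2537 and 3001 in DM, and 2029, 772 and 1513 in NO, below GS (-0.89, adjusted p = 0.0388) and DM (-1.10, adjusted p = 0.0230) in every NO library. Without NO replicate 2 the difference of *Qdpr* from GS was -0.50 (adjusted p = 0.0550) and that from DM -0.70 (adjusted p = 0.0197). Of 4 genes of arginine recycling and breakdown, 1 rose in NO against GS (13.4% of all genes did) and 2 in NO against DM (9.01%). *Arg2*, an arginase that competes for arginine, was at 27, 183 and 103 in NO, against 15, 14 and 15 in GS (2.37, adjusted p = 0.0226) and 21, 11 and 5 in DM (2.80, adjusted p = 0.0164). Without NO replicate 2 neither passed, with 1.79 (adjusted p = 0.0794) and 2.21 (adjusted p = 0.0514).

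Of 11 tested synthase partners, 1 rose in DM against GS (4.37% of all genes did), 3 rose and 2 fell in NO against GS (13.4% and 6.64%), and 1 rose and 2 fell in NO against DM (9.01% and 5.24%). The gene that rose in NO against DM was *Cav2*, which is also among the 3 against GS. *Dlg4*, the scaffold PSD-95 that anchors NOS1 at synapses, was at 55, 51 and 30 in GS, 95, 134 and 121 in DM, and 100, 109 and 80 in NO, thus rising in DM (log2 fold change 1.38, adjusted p = 0.0112) and NO (1.11, adjusted p = 0.0163) while *Nos1* fell. The partners that fell in NO were *Calm3*, a calmodulin gene (by 0.72 on the log2 scale against GS, adjusted p = 0.0178, with 4831, 4202 and 3560 in GS and 2721, 2023 and 2956 in NO), and *Hsp90ab1*, a chaperone gene (-0.61, adjusted p = 0.0390), both named after their values were seen. Without NO replicate 2, where both were lowest, neither was among the 5 pathway genes that passed in NO against GS. *Cav2*, a caveolin, was listed at 0 in all GS and DM libraries and had 4, 63 and 14 in NO (adjusted p = 0.00752 against GS and 0.0121 against DM, no fold being given against 0). It passed the minimum mean through NO alone, where it was high, and without NO replicate 2 it fell under that minimum, so these calls are no support for a change. The 6 arginine methyltransferases tested, which produce the substrate of the hydrolases, the 6 denitrosylases and the 3 globin and nitrite reductase genes passed the limma test in none of the 3 comparisons. At an unadjusted p under 0.05, for which no share of all genes is given, there was 1 methyltransferase in each comparison. There were 0, 1 and 2 denitrosylases and 0 globin or reductase genes.

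**Figure D5:**
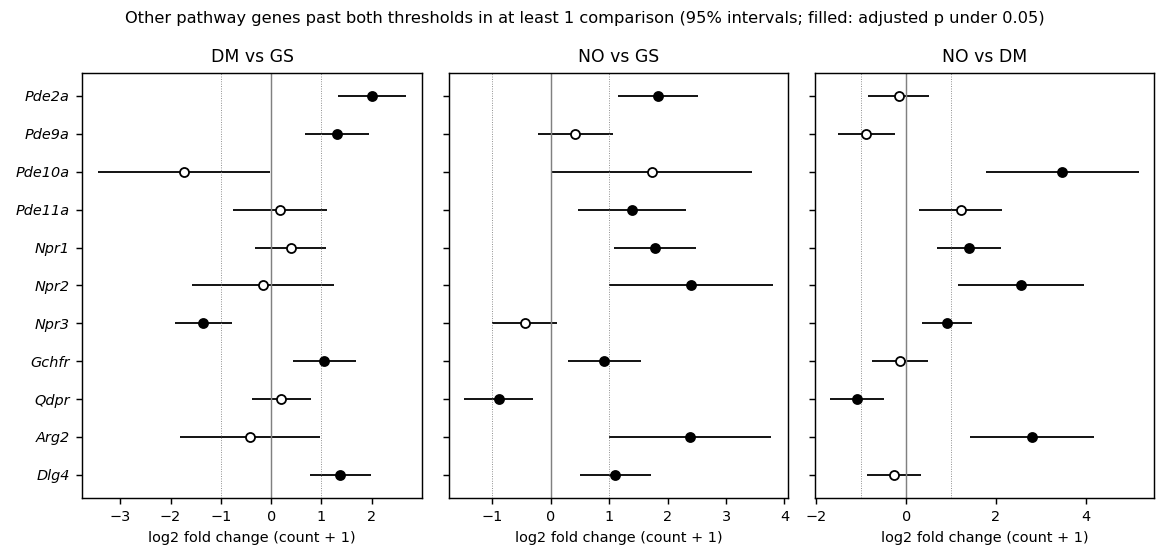
Log2 fold changes of normalised counts plus 1 (x axis, own scale in each panel) with 95% intervals for the other pathway genes past both thresholds in at least 1 comparison, except *Cav2*, with filled points for an adjusted p under 0.05 and dotted lines at 2-fold. *Pde2a* and *Dlg4* are higher in DM and in NO against GS, and the intervals of *Pde10a*, *Npr2* and *Arg2* are wide in every panel.

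Beside these changes, endothelial markers, of which 6 of 7 were in the table, summed to 2998 to 4129 in GS, 2536 to 2800 in DM and 3511 to 5388 in NO. Most of the sum was *Pecam1*, which mESC express, at 2317 to 3988 in all libraries, and *Tek* had 75, 96 and 94 in GS, 145, 169 and 152 in DM, and 557, 1871 and 987 in NO. Of 4 tested endothelial markers, 3 (*Tek*, *Tie1* and *Kdr*) passed the limma test as higher in NO than in DM, where 9.01% of all genes did. *Tie1* had 3 to 5 in GS, 2 to 5 in DM and 6 to 25 in NO. It passed the minimum mean through NO alone, so its call is no support for a change. In NO against GS 1 passed as higher (*Tek*), where 13.4% of all genes did. Primitive endoderm markers summed to 106 to 165, 94 to 162 and 197 to 538, trophoblast markers to 1091 to 1205, 748 to 940 and 934 to 1555, and primitive streak markers to 180 to 242, 14 to 33 and 35 to 69. Sums of fibroblast markers (312 to 492, 410 to 438 and 378 to 402) in DM and in NO overlapped with those in GS, and every DM sum lay above every NO sum. Sums of neural markers (955 to 1371, 1068 to 1370 and 916 to 1190) overlapped between the media. Single markers moved. *Thy1* had 59 to 60, 168 to 211 and 158 to 176, and *Pdgfrb* 219 to 378, 163 to 216 and 110 to 175. By limma, 2 of 5 fibroblast markers were higher and 1 lower in NO than in GS (13.4% and 6.64% of all genes). Of 5 neural markers, 1 was higher and 1 lower in NO than in DM (9.01% and 5.24%). NO replicate 2 had the highest sum of the 9 libraries for endothelium, smooth muscle, macrophage, primitive endoderm and trophoblast. Their part in the changes described above was not tested.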

How the data were processed

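Total RNA-Seq libraries of mESC in GS, DM and NO were analysed, 3 per medium, grouped by their labels. Per the study's methods and the submitters' processing notes, reads were aligned to GRCm38 (mm10) with STAR 2.4.0a, counted per gene with featureCounts 1.4.5-p1 and normalised with DESeq2. The deposited values are a score per gene, namely reads scaled by a size factor of each library and rounded by the authors, not raw counts, so a count model was not fitted. Depth was estimated from gaps and doubled values among low values.

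Genes with a mean above 5 (18156) were analysed as log2(value + 1) in limma (version 3.58.1, R 4.3.3), 9 samples in 1 fit with a mean per medium, a mean-variance trend and Benjamini-Hochberg adjustment over all genes. Calls needed an adjusted p under 0.05 and, where stated, a 2-fold change. Tests were two-sided. The fits were tested on simulated data. Fold changes on this scale are understated for low genes. The members and lists were chosen with earlier results of these data known. All 10 members, pathway genes called in a comparison, genes with overlapping exons and the 4 nearest profiles to each member called were named.

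Labels number the replicates 1 to 3 in each medium. Deviations of same-numbered libraries from their group means correlated at 0.159, 0.167 and 0.296 between NO and DM, which was taken as pairing, at -0.178, 0.0216 and -0.232 between DM and GS, and at -0.0462, 0.0503 and -0.106 between NO and GS. The main fit had no term for pairing, so its p-values do not take it into account. Fits with the replicate number as a block did, and they are given as an alternative. Exons and coordinates were taken from GENCODE M21, promoter windows from RefSeq. Replicates differed by 6.37 to 41.9 times the variance that sampling gives, so none was a library deposited again.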

Additional observations from a re-analysis of the deposited data

How the results depend on the processing

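Each member was refitted under 19 alternatives, 16 to 18 where *Nos2* or *Nostrin* fell under the minimum. No call changed sign. *Nos3* in DM against GS, *Ddah1* and *Nos1* in NO against GS and *Pde5a* in NO against DM passed in all 19, *Nos1* in DM against GS in 9 (adjusted p 0.0162 to 0.141) and *Pde5a* in NO against GS in 11 (0.0145 to 0.123). The cause of the losses was not tested. Called members in NO against GS numbered 1 with no minimum mean or no mean-variance trend (*Nos3*) and 1 after quantile normalisation (*Ddah1*, with *Pde5a* lost at an adjusted p of 0.0948; this scaling moved the median log2 fold change of all genes from -0.02 to -0.11), and 4 with no minimum fold change. In DM against GS there were 3 with no minimum fold change, and in NO against DM 2 after quantile normalisation, when *Nos3* was called as lower (-1.15, adjusted p = 0.0396) and lost its rise in NO against GS (adjusted p = 0.15). Leaving out 1 library gave 1 to 2 called members in NO against GS and in NO against DM, 1 in DM against GS, and 3 to 4 by the F test. Among the members the replicate block lost *Nos1* in DM against GS (adjusted p = 0.0673), changed no other call and gave 1, 2 and 1 called. Of the pathway genes 4, 9 and 9 passed with it, against 6, 12 and 10. The *Nos3* share in GS was 2.74% with the longest transcript as length. Pathway counts, added after seeing the data, were in NO against DM 1 with the 6 samples alone, 3 with a minimum mean of 50 or no trend and 10 with no minimum fold change, in NO against GS 4 with a minimum of 50 or vooma weights and 12 with no minimum fold change, and in DM against GS 3 after quantile normalisation. Leaving out 1 library gave 2 to 5 in DM against GS, 3 to 9 in NO against GS and 0 to 11 in NO against DM. *Nos2*, *Nostrin* and *Prkg1* rested on at most 27, 12 and 5 estimated reads per library.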
